A study of Mus musculus with 8 samples.

Results

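Matrix metalloproteases (MMPs), ADAM proteases and their TIMP inhibitors were followed through 10 mouse genes: Mmp2, Mmp12, Mmp13, Mmp14, Mmp19, Adam8, Adam10, Adam17, Timp1 and Timp2. The genes were picked by name, with earlier results of these data known. A gene was read from array rows whose only annotated symbol was that gene, with the brightest row on average used where several existed, and 10 of 10 were found among 22180 genes read the same way. Each of the 10 lay on a single row. The RNA came from hepatic macrophages of male FVB/N mice aged 8 weeks whose livers had been injured with acetaminophen at 350 mg/kg, given intraperitoneally. All mice received acetaminophen, and 12 h earlier each had received a recombinant protein through the tail vein, either 25 µg of transferrin (rTF, the comparison group, an iron carrier of plasma) or 50 µg of CPS1 (rCPS1, a urea cycle enzyme of hepatocyte mitochondria). Each group had 4 arrays. The protein and its dose differ together between the groups, and there was no group without acetaminophen or without injected protein. All titles carry the name Mouse1, so it is not settled whether replicates are separate mice, and any p-value refers to the spread among these 8 samples, part or all of which may be technical.

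MMPs are zinc-dependent proteases made as inactive precursors, which together cut most proteins of the extracellular matrix. ADAMs are membrane-anchored relatives that mostly release the outer parts of cell surface proteins, among them cytokines, growth factors and receptors. TIMPs are small secreted proteins that sit in the active site of these enzymes and block them. In the liver, macrophages supply several MMPs, while stellate cells and fibroblasts are known sources of Mmp2 and Timp1, and neutrophils store Mmp8 and Mmp9 in granules.

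Values are log2 expression levels as the authors deposited them. The median level of an array was 3.55 to 3.68, and the correlation between 2 arrays over all rows was 0.967 to 0.983 (rows are not independent replicates). On the first principal component (22.9% of the variance) rTF replicate 2 stood at 42.6 and the others between -23.1 and 7.0. All 14 Kupffer cell markers checked (Clec4f, Timd4, Vsig4, Marco and others) averaged above 3.60, the median level over array rows. So did all 12 endothelial markers (Pecam1, Cdh5, Stab2 and others) and all 12 hepatocyte markers (Alb, Ttr and others). Array means were 8.91 to 9.58 for the Kupffer cell markers and higher, 11.09 to 11.39, for the endothelial markers. The part of other cells in the levels of the 10 genes was not tested. The number of arrays limits the precision. No gene of 22180 passed at an adjusted p of 0.05 in limma, which fits all genes together, so the background share of called genes was 0%, and 1035 genes (4.67%) had an unadjusted p under 0.05.

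None of the 10 genes passed the adjusted threshold, and none separated the 4 rCPS1 arrays from the 4 rTF arrays without overlap, against 2.92% of all genes (1.97% in the lower direction). At an unadjusted p under 0.05 the count was 1 of 10, Adam8, which averaged lower with rCPS1, against 4.67% of all genes in either direction and 2.79% lower. With rCPS1 7 of the 10 averaged lower and 3 higher, and 54.4% of all genes averaged lower. The median log2 difference (rCPS1 minus rTF) was -0.11 over the 10 genes and -0.018 over all genes. On average Adam8 was 1.44-fold lower with rCPS1, Mmp19 1.31-fold and Mmp13 1.24-fold lower, while Mmp14, Adam10, Adam17 and Timp2 differed by at most 0.07 on the log2 scale.

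**Figure D1:**
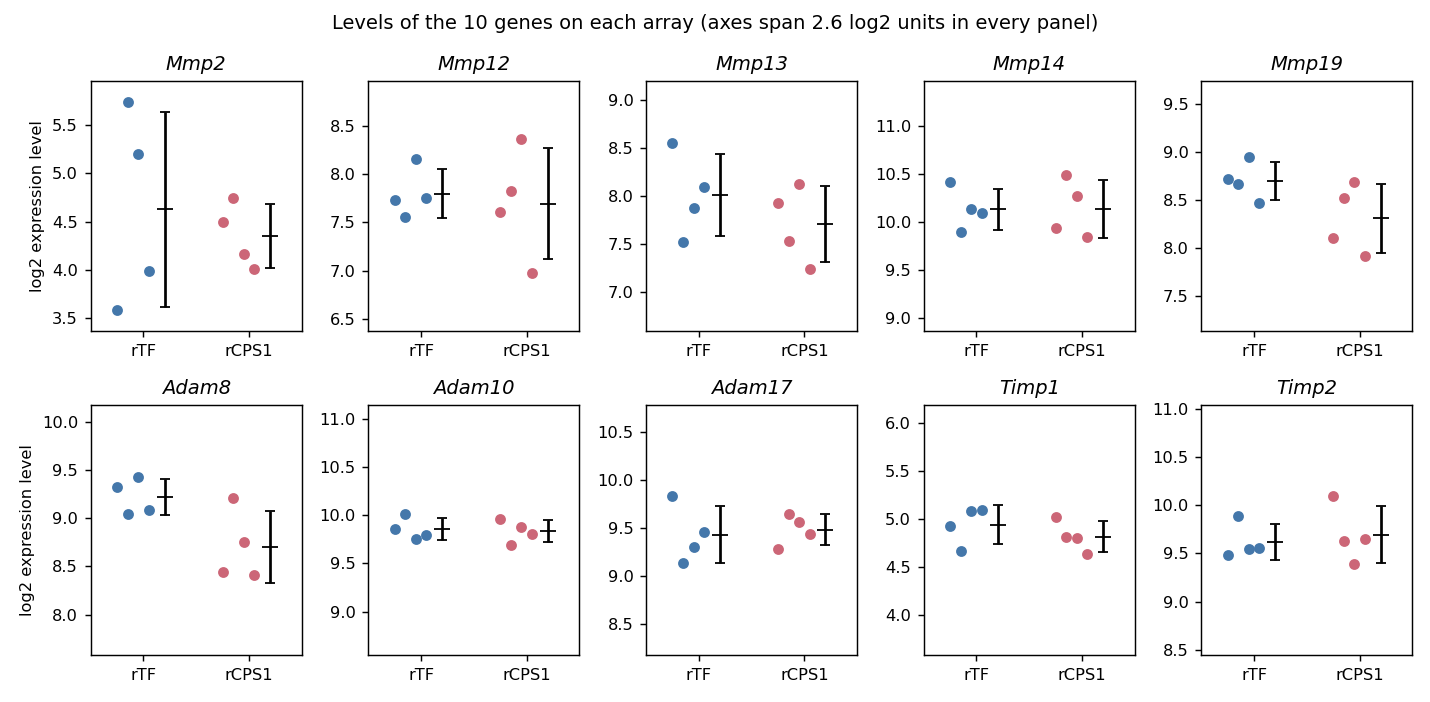
Log2 expression level of each gene on every array (vertical axis, 2.6 log2 units in each panel), with rTF arrays in blue and rCPS1 arrays in red, replicates 1 to 4 from left to right in a group, and the group mean ± SD in black (n = 4). The groups overlap in every panel, with 3 of 4 rCPS1 arrays below all rTF arrays for Adam8.

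The start regions of Mmp13, Mmp12 and Adam8 are shown because the first 2 are neighbouring, inducible macrophage protease genes on chromosome 9 and Adam8 had the smallest p of the 10 genes. Each sequence is the 250 bases before a start site, from RefSeq on GRCm38.p6, written along the gene's own strand, with capitals for matches to TGANTCA (the AP-1 motif), TATAAA (the TATA box) and GGGCGG (the GC box), searched on both strands.
Mmp13 (chr9:7272264-7272513, plus strand): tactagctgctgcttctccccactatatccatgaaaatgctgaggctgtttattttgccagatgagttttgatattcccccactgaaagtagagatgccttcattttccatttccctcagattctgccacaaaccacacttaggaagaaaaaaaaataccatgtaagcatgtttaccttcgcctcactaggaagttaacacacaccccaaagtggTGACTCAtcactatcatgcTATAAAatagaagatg
Mmp12 (chr9:7347124-7347373, plus strand): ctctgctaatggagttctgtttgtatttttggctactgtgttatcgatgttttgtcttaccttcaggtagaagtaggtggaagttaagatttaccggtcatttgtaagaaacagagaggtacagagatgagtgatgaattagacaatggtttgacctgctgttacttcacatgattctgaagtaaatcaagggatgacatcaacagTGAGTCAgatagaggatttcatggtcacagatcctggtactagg
Adam8 (chr7:139992563-139992812, minus strand): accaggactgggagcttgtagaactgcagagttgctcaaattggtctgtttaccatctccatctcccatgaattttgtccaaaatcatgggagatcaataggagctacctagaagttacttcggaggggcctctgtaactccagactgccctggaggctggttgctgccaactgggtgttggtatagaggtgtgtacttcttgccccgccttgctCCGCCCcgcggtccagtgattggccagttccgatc
The Mmp13 window held an AP-1 match starting 35 bases before the start site and a TATA box match starting 16 bases before it. The Mmp12 window held an AP-1 match starting 44 bases before its start site. RefSeq lists a further Mmp12 start, whose window (chr9:7344147-7344396) held no match to these letters. The Adam8 window held a GC box match starting 35 bases before the start site. Of 32851 windows of this length, 6.7% held the AP-1 letters, 12.4% the TATA box letters, 32.7% the GC box letters and 1.21% both AP-1 and TATA box letters. Windows were found for 8 of the 10 genes, all but Mmp2 and Mmp19. Those of Mmp14, Adam10, Adam17, Timp1 and Timp2 each held at least 1 GC box match and no AP-1 match. None of these matches shares bases with a match to another of the 3 motifs. They are letter matches in a window, with no measurement of binding here.

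Mmp13, the main interstitial collagenase of mice, and Mmp12, macrophage elastase, are secreted by macrophages during matrix breakdown in the liver. Mmp13 (array row 17514482) was at 8.55, 7.52, 7.88 and 8.09 in rTF replicates 1 to 4 and at 7.93, 7.53, 8.12 and 7.24 in rCPS1 replicates 1 to 4. The highest array was rTF replicate 1 and the lowest rCPS1 replicate 4, and the other 6 arrays of the groups were intermixed. The means were 8.01 ± 0.43 and 7.71 ± 0.39 (SD, n = 4 each), a log2 difference of -0.31 ± 0.24 (SE), with a 95% interval of -0.85 to 0.24 and a limma adjusted p of 0.98.

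Mmp12 (array row 17514495) was at 7.73, 7.56, 8.16 and 7.75 with rTF and at 7.61, 7.83, 8.37 and 6.97 with rCPS1. Both the highest and the lowest array belonged to the rCPS1 group, whose range of 1.40 was wider than the 0.60 of the rTF group. The log2 difference was -0.11 ± 0.26 (SE), with a 95% interval of -0.69 to 0.48 and a limma adjusted p of 0.988. The sign rested on rCPS1 replicate 4, since the difference was 0.13 without that array, and on rTF replicate 3, without which it was 0.01.

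Mmp14 (MT1-MMP) is a membrane-anchored collagenase, and Timp2 links it to the precursor of Mmp2, a gelatinase, which Mmp14 then activates. Mmp14 (array row 17300279) was at 10.41, 9.89, 10.13 and 10.09 with rTF and at 9.94, 10.49, 10.27 and 9.84 with rCPS1. The groups covered nearly the same range, with means of 10.13 ± 0.21 and 10.14 ± 0.30 (SD, n = 4 each). The log2 difference was 0.004 ± 0.17 (SE), with a 95% interval of -0.37 to 0.38, and its sign turned when the deposited values were quantile normalized or centred on the array medians (-0.01 and -0.04).

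Timp2 (array row 17272770) was at 9.48, 9.89, 9.55 and 9.56 with rTF and at 10.10, 9.63, 9.39 and 9.65 with rCPS1. The highest and the lowest array were rCPS1 replicates 1 and 3. The log2 difference was 0.07 ± 0.16 (SE), with a 95% interval of -0.29 to 0.43 and a limma adjusted p of 0.988, and it was -0.06 without rCPS1 replicate 1.

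Mmp2 (array row 17503825) was at 3.58, 5.74, 5.20 and 3.99 with rTF and at 4.49, 4.74, 4.16 and 4.01 with rCPS1. The rTF group split into a pair of higher arrays (replicates 2 and 3) and a pair of lower ones, with all rCPS1 arrays in between, and rTF replicate 1 lay just below 3.60, the median level over array rows. Its SD of 1.0 in the rTF group was the widest of the 10 genes in either group. The log2 difference was -0.28 ± 0.42 (SE), with a 95% interval of -1.22 to 0.66, a limma adjusted p of 0.981 and a value of 0.09 without rTF replicate 2.

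Markers of stellate cells and fibroblasts were set beside Mmp2. The mean level of these 14 genes, which include Col1a1, Col3a1, Lrat, Dcn and Pdgfrb, was 4.99, 5.51, 5.83 and 5.44 with rTF and 5.45, 5.61, 5.17 and 4.97 with rCPS1. In the rTF group replicate 1 was lowest for both this mean and Mmp2, and replicates 2 and 3 were highest for both, while in the rCPS1 group replicates 1 and 2 were the higher pair for both. Of the 14 markers 11 averaged lower with rCPS1, 0 had an unadjusted p under 0.05, and only Lum averaged below the median row level. Over all genes 54.4% averaged lower. The part of these cells in the Mmp2 values was not tested.

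Mmp19, which cuts basement membrane components, had the second widest gap between group means on the log2 scale among the 10 genes. Mmp19 (array row 17238558) was at 8.72, 8.66, 8.95 and 8.47 with rTF and at 8.10, 8.52, 8.69 and 7.92 with rCPS1. All 4 rCPS1 arrays lay below the rTF mean and 2 of them, replicates 1 and 4, lay below every rTF array. The means were 8.70 ± 0.20 and 8.31 ± 0.36 (SD, n = 4 each), a log2 difference of -0.39 ± 0.18 (SE) with a 95% interval of -0.80 to 0.01. The unadjusted limma p was 0.0569 and the adjusted p 0.98, and a two-sided exact permutation test gave p = 0.171. In 6 of 17 alternative settings the unadjusted p was under 0.05, and the lowest adjusted p was 0.892.

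Adam8 is a leukocyte ADAM of neutrophils, monocytes and activated macrophages that sheds adhesion molecules. Adam8 (array row 17497525) was at 9.33, 9.04, 9.43 and 9.09 with rTF and at 8.44, 9.21, 8.75 and 8.41 with rCPS1. In the rCPS1 group 3 of 4 arrays lay below all rTF arrays, and replicate 2 lay within the rTF range. The means were 9.23 ± 0.19 and 8.70 ± 0.37 (SD, n = 4 each), a log2 difference of -0.52 ± 0.19 (SE) with a 95% interval of -0.94 to -0.11. The unadjusted limma p was 0.0187, and 351 of the 22180 genes had a smaller one, so the adjusted p was 0.98. A two-sided exact permutation test gave p = 0.0857, where 4 against 4 allows 0.0286 at the least. A difference at least this far down occurred in 1.01% of all genes, as a description of these arrays. Leaving out any of 3 arrays took the unadjusted limma p above 0.05: with rTF replicate 3 dropped it was 0.0529, with rCPS1 replicate 1 dropped 0.0565, and with rCPS1 replicate 4 dropped 0.056, while the difference was -0.69 without rCPS1 replicate 2.

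Neutrophil and monocyte markers averaged lower in the same group as Adam8 and Mmp19. The marker lists were chosen with earlier results of these data known, so their counts and means are descriptions only. Over all genes 54.4% averaged lower with rCPS1, and 2.79% did so at an unadjusted limma p under 0.05. The mean of 14 neutrophil markers was 5.62 to 6.28 on the rTF arrays and 4.63 to 5.39 on the rCPS1 arrays, with 13 of 14 averaging lower with rCPS1 and 10 at an unadjusted p under 0.05. The neutrophil genes Mpo, Elane and Camp averaged below the median row level in these samples. The mean of 11 monocyte markers was 8.32 to 8.67 with rTF and 7.74 to 7.87 with rCPS1, with 11 of 11 averaging lower and 8 at an unadjusted p under 0.05. T and NK cell markers averaged lower for 10 of 11 genes, 3 of them at an unadjusted p under 0.05. Their array means overlapped, with 6.12 to 7.43 under rTF and 5.85 to 6.40 under rCPS1. The 7.43 was rTF replicate 2 alone, and the other rTF arrays were at 6.12 to 6.47. Kupffer cell markers ran the other way, with 12 of 14 averaging higher, 0 at an unadjusted p under 0.05, and array means of 8.91 to 9.53 and 9.06 to 9.58. None of these markers passed the adjusted threshold in limma. In bulk RNA, fewer cells of a type and less RNA per cell cannot be told apart, and the part of these markers in the Adam8 and Mmp19 differences was not tested. Within groups Adam8 and these 2 means matched in part. The neutrophil mean was highest in rTF replicate 2, where Adam8 was lowest for that group. In the rCPS1 group replicates 2 and 3 were the higher pair for both the neutrophil mean and Adam8. The monocyte mean and Adam8 were both highest of their group in rTF replicate 3. In rCPS1 replicate 3 the monocyte mean was lowest and Adam8 second highest, but the rCPS1 monocyte means spanned only 0.13. In rCPS1 replicate 4, the lowest of its group for Adam8, the neutrophil, T and NK cell, hepatocyte and stellate cell means were lowest too. The endothelial mean was highest of the group there (11.37), and the Kupffer cell mean was 9.06, as in replicate 2.

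**Figure D2:**
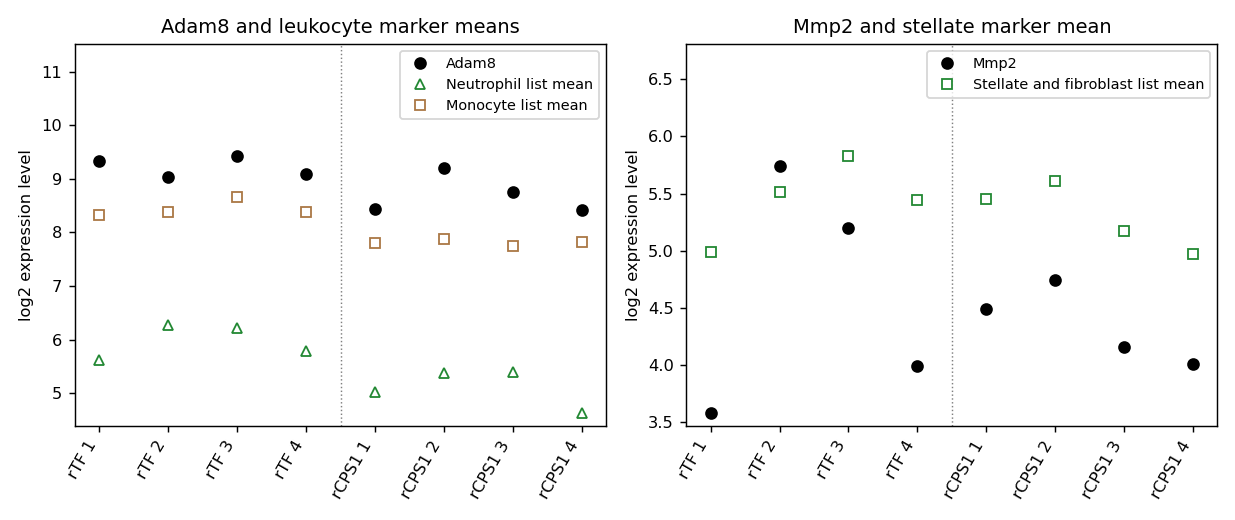
Log2 levels on each array of Adam8 with the mean of the neutrophil and monocyte markers (left), and of Mmp2 with the mean of the stellate cell and fibroblast markers (right). Arrays are ordered by group and replicate, with a dotted line between the groups. The neutrophil and monocyte means separate the groups, Adam8 overlaps in rCPS1 replicate 2, and Mmp2 is high in rTF replicates 2 and 3. The marker lists were chosen with earlier results of these data known.

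Adam10 and Adam17 are the widely expressed sheddases, with Adam10 cutting Notch receptors and Adam17 (TACE) releasing tumour necrosis factor. Adam10 (array row 17519088) was at 9.86, 10.01, 9.75 and 9.80 with rTF and at 9.96, 9.69, 9.88 and 9.81 with rCPS1. Its 8 arrays lay within 0.32 of each other, the narrowest spread of the 10 genes. The log2 difference was -0.02 ± 0.11 (SE), with a 95% interval of -0.27 to 0.23 and a limma adjusted p of 0.992. The sign turned with array weights (0.0047) and without rTF replicate 2 (0.03) or rCPS1 replicate 2 (0.03).

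Adam17 (array row 17280207) was at 9.83, 9.14, 9.30 and 9.46 with rTF and at 9.28, 9.65, 9.57 and 9.44 with rCPS1. The rTF group held both the highest array, replicate 1, and the lowest, replicate 2. The log2 difference was 0.05 ± 0.16 (SE), with a 95% interval of -0.31 to 0.41 and a limma adjusted p of 0.988, and it was -0.05 without rTF replicate 2.

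Timp1 is the inducible, secreted inhibitor of most MMPs and of Adam10. Timp1 (array row 17533713) was at 4.93, 4.66, 5.08 and 5.09 with rTF and at 5.02, 4.81, 4.80 and 4.63 with rCPS1. The arrays of the groups interleaved, with rTF replicate 2 and rCPS1 replicate 4 lowest. The means were 4.94 ± 0.20 and 4.82 ± 0.16 (SD, n = 4 each), a log2 difference of -0.12 ± 0.14 (SE) with a 95% interval of -0.43 to 0.18 and a limma adjusted p of 0.98.

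**Figure D3:**
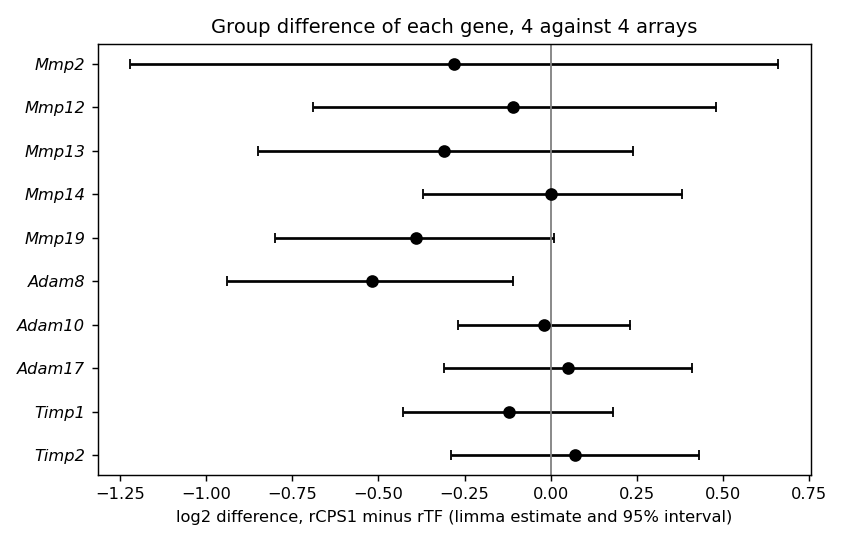
Log2 difference of each gene (rCPS1 minus rTF) as estimated by limma, with its unadjusted 95% interval (n = 4 arrays per group). The interval lies below 0 for Adam8 and crosses 0 for the other 9 genes, most widely for Mmp2 (-1.22 to 0.66) and most narrowly for Adam10 (-0.27 to 0.23).

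Single arrays stood at the end of their group for many of the 10 genes. In the rCPS1 group, replicate 4 was the lowest array for 7 of 10 genes (Mmp2, Mmp12, Mmp13, Mmp14, Mmp19, Adam8 and Timp1) and the highest for 0. In the rTF group, replicate 2 was the lowest for 6 of 10 genes (Mmp12, Mmp13, Mmp14, Adam8, Adam17 and Timp1) and the highest for Mmp2, Adam10 and Timp2. These 10 genes share the arrays, so they are not separate observations of those arrays. With 1 array left out at a time the log2 difference stayed below 0 in all 8 fits for Mmp13 (-0.47 to -0.13), Mmp19 (-0.52 to -0.27), Adam8 (-0.69 to -0.42) and Timp1 (-0.22 to -0.06). It took both signs for Mmp2, Mmp12, Mmp14, Adam10, Adam17 and Timp2.

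**Figure D4:**
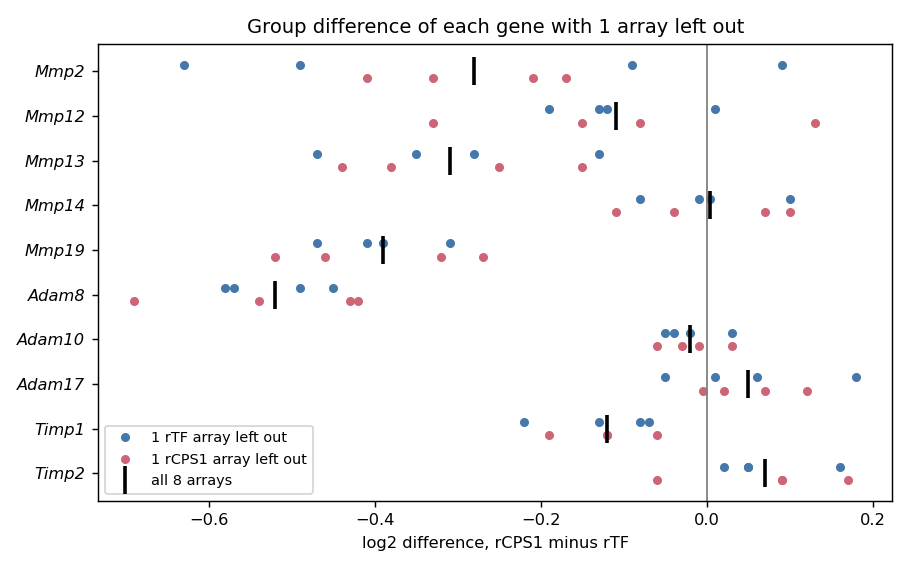
Log2 difference (rCPS1 minus rTF) of each gene with all 8 arrays (black bar) and with 1 rTF (blue) or 1 rCPS1 (red) array left out. All 8 points lie below 0 for Mmp13, Mmp19, Adam8 and Timp1, and Mmp2 spans the widest range, -0.63 to 0.09.

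Levels of some of the 10 genes went together from array to array, given here as descriptions over 8 arrays that fall into 2 treatment groups and were normalized together. Adam8 and Mmp19 correlated at Pearson r = 0.86, Mmp14 and Adam17 at 0.81, and Mmp12 and Mmp19 at 0.78. Mmp2 and Adam17 ran opposite at -0.75. Among 12384 genes with a mean at or above the median row level, the nearest patterns to Adam8 were those of F5 (r = 0.96, Spearman rho 0.95) and Ercc8 (0.94 and 0.74). For Mmp13 they were Mettl1 (0.95 and 0.95) and Ccl7 (0.94 and 0.95), for Mmp12 Tlcd4 (0.98 and 0.93) and St7 (0.94 and 0.85), and for Timp1 Rps20 (0.93 and 0.93) and Crp (0.91 and 0.93). These genes are the extremes of a long list over few arrays.

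Among 17 other MMP genes measured, Mmp8 and Mmp9 had the farthest apart groups. Mmp8, the neutrophil collagenase, was at 8.06, 7.15, 8.91 and 7.58 with rTF and at 6.30, 7.03, 6.58 and 5.91 with rCPS1. Every rCPS1 array lay below every rTF array, and the log2 difference was -1.47 ± 0.36 (SE), with an unadjusted limma p of 0.00211 and an adjusted p of 0.862. Mmp9, the gelatinase of neutrophils and macrophages, was at 6.42, 6.73, 7.21 and 6.93 with rTF and at 6.22, 6.0, 6.29 and 4.82 with rCPS1. These groups did not overlap either, and the log2 difference was -0.99 ± 0.31 (SE), with an unadjusted limma p of 0.00979 and an adjusted p of 0.98. The shift in neutrophil markers described beside Adam8 went with both, and both genes are in that marker list. Of the 17 genes 0 passed the adjusted threshold and 2 had an unadjusted p under 0.05, against 4.67% of all genes. Of the 17, 12 averaged below the median row level, among them the stromelysin gene Mmp3 (1.87 ± 0.44 and 1.93 ± 0.34, SD, n = 4 each). The median difference of the 17 was 0.00, and Mmp28 differed by -0.08 ± 0.26 (SE).

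Of 10 other ADAM genes, 0 had an unadjusted p under 0.05, with 4 averaging lower and 6 higher. The sheddase gene Adam9 differed by 0.05 ± 0.11 (SE), Adam15 by -0.17 ± 0.16, Adam19 by -0.02 ± 0.16 and Adam28 by 0.14 ± 0.12. Adam28 was at 1.52 to 2.01, below the median row level. Adamdec1, a soluble ADAM-like protease of macrophages, was at 6.18 to 6.88 with rTF and 6.41 to 7.45 with rCPS1, a log2 difference of 0.42 ± 0.23 (SE). Of 18 ADAMTS genes, which encode secreted proteases of proteoglycans and other matrix or plasma proteins, 11 averaged lower and 7 higher. Adamts1 differed by 0.08 ± 0.14, Adamts13, the protease of von Willebrand factor, by -0.41 ± 0.19, and Adamts16 by 0.45 ± 0.18 at levels of 2.02 to 3.10, below the median row level. Adamts16 alone had an unadjusted limma p under 0.05 (0.0333, adjusted p 0.98), against 4.67% of all genes.

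Of 7 other protease inhibitors, 5 averaged lower and 2 higher. Timp3, the matrix-bound TIMP that blocks Adam17, was at 9.56 to 10.49 with rTF and 9.84 to 10.59 with rCPS1, a log2 difference of 0.03 ± 0.23 (SE). Timp4 differed by 0.18 ± 0.11, the membrane inhibitor gene Reck by less than 0.01 with an SE of 0.20, and A2m by -0.11 ± 0.13. Timp4 and A2m averaged below the median row level. Spink5, a serine protease inhibitor gene, differed by -0.42 ± 0.14 without overlap at levels of 1.77 to 2.70, below the median row level. For the activation and uptake of MMPs, 7 of 11 genes averaged lower, 4 higher and 0 had an unadjusted p under 0.05. Plau, the urokinase that starts the plasmin cascade, differed by 0.35 ± 0.17, its receptor gene Plaur by 0.02 ± 0.12, the precursor-cleaving Furin by -0.05 ± 0.12, the MMP inducer gene Bsg by -0.25 ± 0.14 and the clearance receptor gene Lrp1 by 0.04 ± 0.21.

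Among 11 genes listed for the handling of Adam10 or Adam17 in the cell, Pacs2 and Sec62 included, 7 averaged lower and 4 higher. Of these 0 had an unadjusted limma p under 0.05. The iRhom gene Rhbdf2 differed by -0.02 ± 0.16 (SE), Frmd8, which stabilises iRhoms, by 0.16 ± 0.11, and the tetraspanin genes Tspan14 and Tspan33 by -0.19 ± 0.15 and -0.56 ± 0.33. Of 23 genes for proteins that ADAMs shed, 12 averaged lower and 11 higher, and 2 had an unadjusted p under 0.05. The share at that level over all genes was 4.67%. Tnf differed by -0.02 ± 0.22, its receptor genes Tnfrsf1a and Tnfrsf1b by 0.03 ± 0.12 and -0.17 ± 0.20, the growth factor gene Hbegf by 0.22 ± 0.18 and the dead-cell receptor gene Mertk by 0.10 ± 0.10. Il1r2, the decoy receptor of interleukin 1, was at 7.42 to 8.35 with rTF and 7.11 to 7.33 with rCPS1, a difference of -0.76 ± 0.18 (adjusted p 0.862 in limma). Trem2, a lipid receptor of macrophages, was at 4.85 to 5.35 and 4.34 to 4.77, a difference of -0.57 ± 0.14 (adjusted p 0.887 in limma).

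Of 21 matrix genes, 15 averaged lower and 6 higher, and 2 had an unadjusted p under 0.05. The shares over all genes were 54.4% lower and 4.67% with such a p. Fibronectin (Fn1), which monocytes also express, was at 9.47 to 10.16 with rTF and 8.60 to 9.58 with rCPS1, a log2 difference of -0.72 ± 0.22 (SE) with an adjusted p of 0.98 in limma. Tnc differed by -0.45 ± 0.20 at levels below the median row level, Col1a1 by -0.12 ± 0.32, Col4a1 by -0.04 ± 0.18 and Eln by 0.18 ± 0.16. Eln also averaged below the median row level. A further list held 15 genes for AP-1 and ETS factors, Stat3 and cytokines linked to MMP transcription, not all of them inducers. Of these 13 averaged lower and 2 higher, against 54.4% of all genes averaging lower, and 0 had an unadjusted limma p under 0.05. The AP-1 genes Fos and Jun differed by -0.16 ± 0.21 and -0.10 ± 0.17, Il1b by -0.19 ± 0.14, Osm by -0.36 ± 0.23 and Tgfb1 by less than 0.01 with an SE of 0.13. The median difference of this list was -0.11, against -0.018 over all genes.

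**Figure D5:**
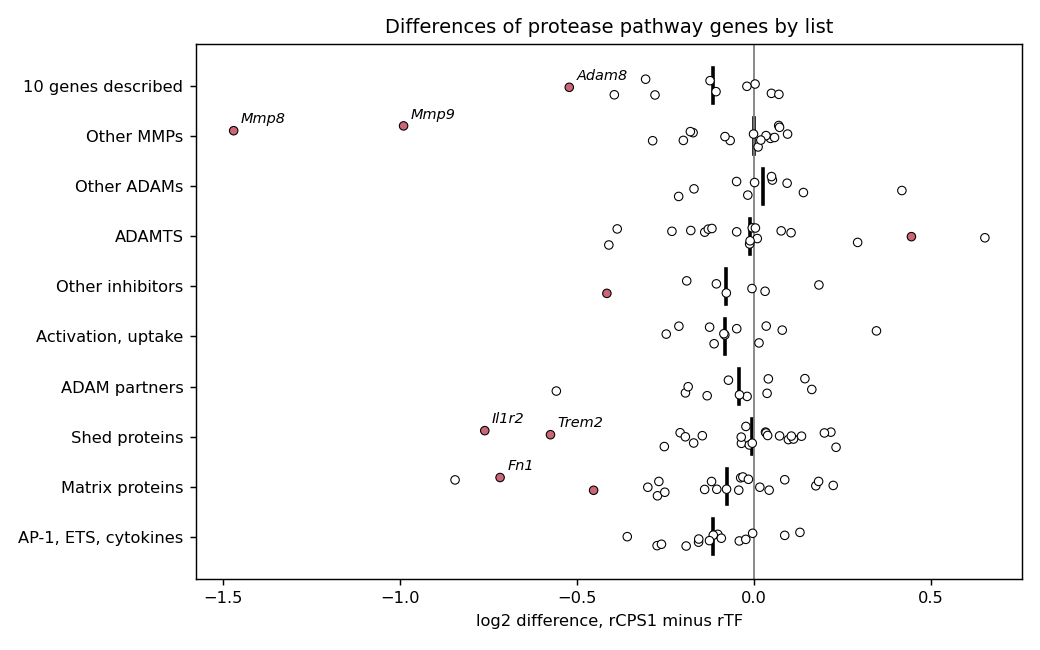
Log2 difference (rCPS1 minus rTF) of each measured gene of the 10 described and of 9 lists of related genes, with 1 point per gene, the list's median as a black bar and vertical scatter for display only. Filled points have an unadjusted limma p under 0.05, and Mmp8 (-1.47) and Mmp9 (-0.99) lie farthest to the left.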

How the data were processed

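Biotinylated cDNA was made from 400 ng of total RNA per sample and hybridised to Affymetrix arrays, per the labels' protocols. The table holds log2 expression levels deposited by the authors, for which RMA and limma are named in the submitters' processing notes without versions. RMA brings arrays to a near common distribution, so a shift shared by most genes would not show. The array design's build, the isolation of the macrophages and the time of sampling are not given in the sources used here.

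Of 41345 array rows, 23521 had 1 gene symbol in the platform annotation, 1814 several and 16010 none. Rows without exactly 1 symbol were left out, and the row of highest mean was used per gene, which gave 22180 genes, dim ones included. The 8 arrays were grouped by title, and rCPS1 was compared with rTF with limma 3.58.1 under R 4.3.3 (two-sided moderated test from lmFit and eBayes, no covariate), with Benjamini-Hochberg adjustment over all genes and a threshold of 0.05. Intervals are limma's unadjusted 95% intervals. The exact permutation test used all 70 assignments of the arrays and is unadjusted.

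The 10 genes and all lists were chosen with earlier results of these data known. Named genes are the 10, the 2 of smallest p in each related list, and a set of role-bearing genes; some listed genes are not reported here. Fn1, Mmp8, Mmp9 and some others are in a pathway list and in a marker list. Alternatives were a trended prior, robust variance (statmod 1.5.0), weights per array, a filter on dim genes, quantile normalization, median centring, averaging a gene's rows, all array rows, the replicate number as a block, and each array left out in turn. Promoter windows are RefSeq's, GRCm38.p6.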

Additional observations from a re-analysis of the deposited data

Results flagged for a closer look

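Each group of 4 arrays was checked for a highest or lowest array that stood apart by Dixon's ratio, for the 10 genes and the related genes named. Of 106 groups 2 were marked, against 5.3 expected at 1 in 20, and none of them belonged to the 10 genes. Mmp3 was at 2.51 in rTF replicate 1 and at 1.55 to 1.71 on the other rTF arrays. Timp4 was at 2.17 in rTF replicate 1 and at 1.84 to 1.87 on the other rTF arrays. Both genes lay below the median row level of 3.60 on these arrays.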

How the results depend on the processing

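In none of the 17 alternatives did any of the 10 genes, or any gene of the whole table, pass the adjusted threshold, and limma's unadjusted count under 0.05 over all genes was 609 (of 12384, with dim genes left out) to 1879 (of 41345 array rows). Mmp13, Mmp19, Adam8 and Timp1 kept their direction in all 17. The Mmp14 difference of 0.004 became -0.01 with quantile normalization and -0.04 with median centring, and Adam10 became 0.0047 with array weights. With 1 array left out the log2 difference ran from -0.63 to 0.09 for Mmp2, -0.33 to 0.13 for Mmp12, -0.11 to 0.10 for Mmp14, -0.06 to 0.03 for Adam10, -0.05 to 0.18 for Adam17 and -0.06 to 0.17 for Timp2. The sign turned without rTF replicate 2 for Mmp2, Mmp14, Adam10 and Adam17, without rCPS1 replicate 2 for Mmp14, Adam10 and Adam17 (-0.0041), without rTF replicate 3 or rCPS1 replicate 4 for Mmp12, without rTF replicate 4 or rCPS1 replicate 3 for Mmp14, and without rCPS1 replicate 1 for Timp2. The cause was not tested. The count of the 10 genes with an unadjusted p under 0.05, 1 as reported, was 2 with an intensity trend, 2 with median centring and 2 with the replicate block, Mmp19 being added each time, and 0 to 2 with 1 array left out. The count averaging lower was 6 to 8 of 10 in all alternatives. With the replicate number as a block, 0 genes were called, as without it, 997 genes had an unadjusted limma p under 0.05 against 1035, and Adam8 had 0.0301. Same-numbered arrays did not deviate together (r = -0.124, -0.033, -0.005 and 0.025 over genes for replicates 1 to 4), no array correlated best with its own number, and the samples share only a number. Median centring shifted the median of all genes by -0.04. The number of arrays limits what could be seen: the median SE of a gene's log2 difference was 0.15.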
